A study of Mus musculus with 47 samples.

Results

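Genes that mark the neural crest and the dedifferentiated states of melanoma were followed through cultures and tumors of a mouse melanoma line whose mitochondrial genome had been edited. The 9 genes were Sox9, Tfap2a, Tfap2b, Nes, Axl, Ngfr, Bmp4, Prph and Marcks, chosen by name from the 56748 genes of the count table with earlier results of these libraries known. Falls of Sox9 and Marcks in edited cells and of Prph in edited tumors were among those results, so that the members' values in these 2 comparisons are given as a description, and their counts past the threshold stand beside the share of all genes with nothing read from them.

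RNA was sequenced from B78-D14 cells, an amelanotic derivative of B16 melanoma that lacks Cdkn2a in every group, edited with base editors that truncate the mitochondrial gene Mt-Nd5, a subunit of respiratory complex I. In culture, 4 replicates of cells with the m.11944 edit at 60% heteroplasmy, the share of mitochondrial genomes that carry it, were compared with 4 replicates of control cells labelled wild type. In tumors, 7 carried the m.12436 edit at 60%, 7 carried it at 40% and 4 came from control cells, and all were fragments of subcutaneous grafts, which hold host cells beside the melanoma cells. No group was treated, the hosts were male C57BL/6 mice whose age the study's documents give in 2 ways, and the labels do not say whether the 4 cultures of a line were grown from separate stocks, so that the p-values measure the spread between these libraries. The paper describes the edited cells as isogenic lines, and the tumors were grafts of such lines. An effect of the edit or its heteroplasmy cannot be told apart from other differences between lines. The m.11944 cultures were recognised by a heading in the study's source data, and the control cultures by their numbering. The 60% and 40% tumors were matched to the columns named high and low.

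Melanocytes arise from the neural crest, a migratory population of the embryo that also forms peripheral neurons and glia. Melanoma cells can lose the pigment cell program and take up parts of the crest program instead, and states of this kind are marked by the receptors Ngfr and Axl and by Sox9. Sox9, Tfap2a and Tfap2b are transcription factors of the crest and its descendants, Nes (nestin) and Prph (peripherin) are intermediate filament proteins of neural progenitors and peripheral neurons, Bmp4 is a secreted ligand that helps to induce the crest, and Marcks is a membrane-bound substrate of protein kinase C that binds actin.

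The members lie on 8 chromosomes, and Sox9 and Ngfr share chromosome 11. For the 4 members with the largest falls, the 250 bases before the start of the canonical transcript were read from the GRCm39 genome on the gene's own strand, 5′ to 3′, to show what precedes the genes whose transcripts are compared below. Capitals mark matches to 6 short motifs, searched on both strands. These were the E-box bound by basic helix-loop-helix factors such as Mitf, spelled CACGTG, the palindrome of the TFAP2 family, spelled GCCNNNGGC, and the core letters bound by SOX proteins, spelled AACAAT. Among the general promoter elements searched, the TATA box was spelled TATAAA, the GC box of the Sp family of activators was spelled GGGCGG, and the cyclic AMP response element (CRE) was spelled TGACGTCA. No match overlapped another in the 4 windows. The Sox9 window is chr11:112672759-112673008, plus strand. The Marcks window is chr10:37014943-37015192, minus strand. The Prph window is chr15:98952622-98952871, plus strand, and the Bmp4 window is chr14:46628127-46628376, minus strand.
Sox9: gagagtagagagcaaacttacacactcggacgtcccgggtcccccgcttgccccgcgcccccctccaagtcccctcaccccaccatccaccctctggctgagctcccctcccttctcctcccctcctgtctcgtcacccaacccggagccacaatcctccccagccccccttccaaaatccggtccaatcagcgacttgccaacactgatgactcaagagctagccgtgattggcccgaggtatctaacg
Marcks: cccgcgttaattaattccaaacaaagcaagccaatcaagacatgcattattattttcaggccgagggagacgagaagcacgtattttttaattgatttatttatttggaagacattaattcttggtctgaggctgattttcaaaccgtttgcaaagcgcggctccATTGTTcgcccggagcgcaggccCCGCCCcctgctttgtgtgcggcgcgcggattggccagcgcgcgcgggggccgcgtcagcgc
Prph: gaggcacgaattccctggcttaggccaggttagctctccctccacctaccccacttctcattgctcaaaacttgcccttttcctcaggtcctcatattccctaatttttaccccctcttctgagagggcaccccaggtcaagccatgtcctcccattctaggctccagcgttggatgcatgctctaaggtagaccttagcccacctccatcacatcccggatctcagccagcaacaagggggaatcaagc
Bmp4: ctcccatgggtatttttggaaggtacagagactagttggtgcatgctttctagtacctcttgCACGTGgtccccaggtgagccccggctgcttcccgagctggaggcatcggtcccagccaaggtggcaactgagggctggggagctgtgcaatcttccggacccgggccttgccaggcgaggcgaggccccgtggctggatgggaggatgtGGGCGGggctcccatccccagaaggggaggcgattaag

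The windows of Sox9 and Prph held none of these letters. The Marcks window held a SOX match that began at −85 from the start and a GC box at −62, and the Bmp4 window an E-box at −188 and a GC box at −38. Over the windows of 21770 protein-coding genes, 9.7% held the SOX letters, 36.3% the GC box, 6.3% the E-box, 13.2% the TFAP2 letters, 11.9% the TATA box and 1.7% the CRE. The windows also differed in composition, with 23 CpG in Marcks, 13 in Sox9, 11 in Bmp4 and 3 in Prph.

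Between 16475735 and 36173502 reads per library were counted on genes. Levels are given as CPM, a count scaled to a common library size, after TMM scaling over all 26 libraries used, and levels of different genes were compared only per kilobase of exon. The pigment cell program was nearly silent in culture: Tyr, which encodes tyrosinase, had 0 reads in all 8 cultures, Sox10 reached at most 0.35 CPM and Pmel 0.488 CPM, while Mitf, the melanocyte transcription factor, had a mean of 17.4 CPM in control cells. The edits are point changes and do not have to alter the level of their own transcript, which had a mean of 274 CPM in control cells and 317 CPM in edited cells for mt-Nd5. Control tumor 3 stood apart in this program, with 24.5 CPM of Dct, 8.93 CPM of Sox10 and 8.19 CPM of Pmel and a summed level of 7 melanocyte lineage genes of 61.7 CPM, against 21.1 to 25.2 CPM in the other 3 control tumors. Mitf alone had a mean of 19.8 CPM over the 4 control tumors, so the sum says little of the other genes. Pigment genes were not confined to control tumor 3. Over the 4 control tumors Dct had a median of 1.63 CPM and Sox10 of 0.897 CPM. Dct had 0 reads in the 60% and 40% tumors. Values of the edited against the control tumors are given without control tumor 3 as well where it moved them most.

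**Figure D1:**
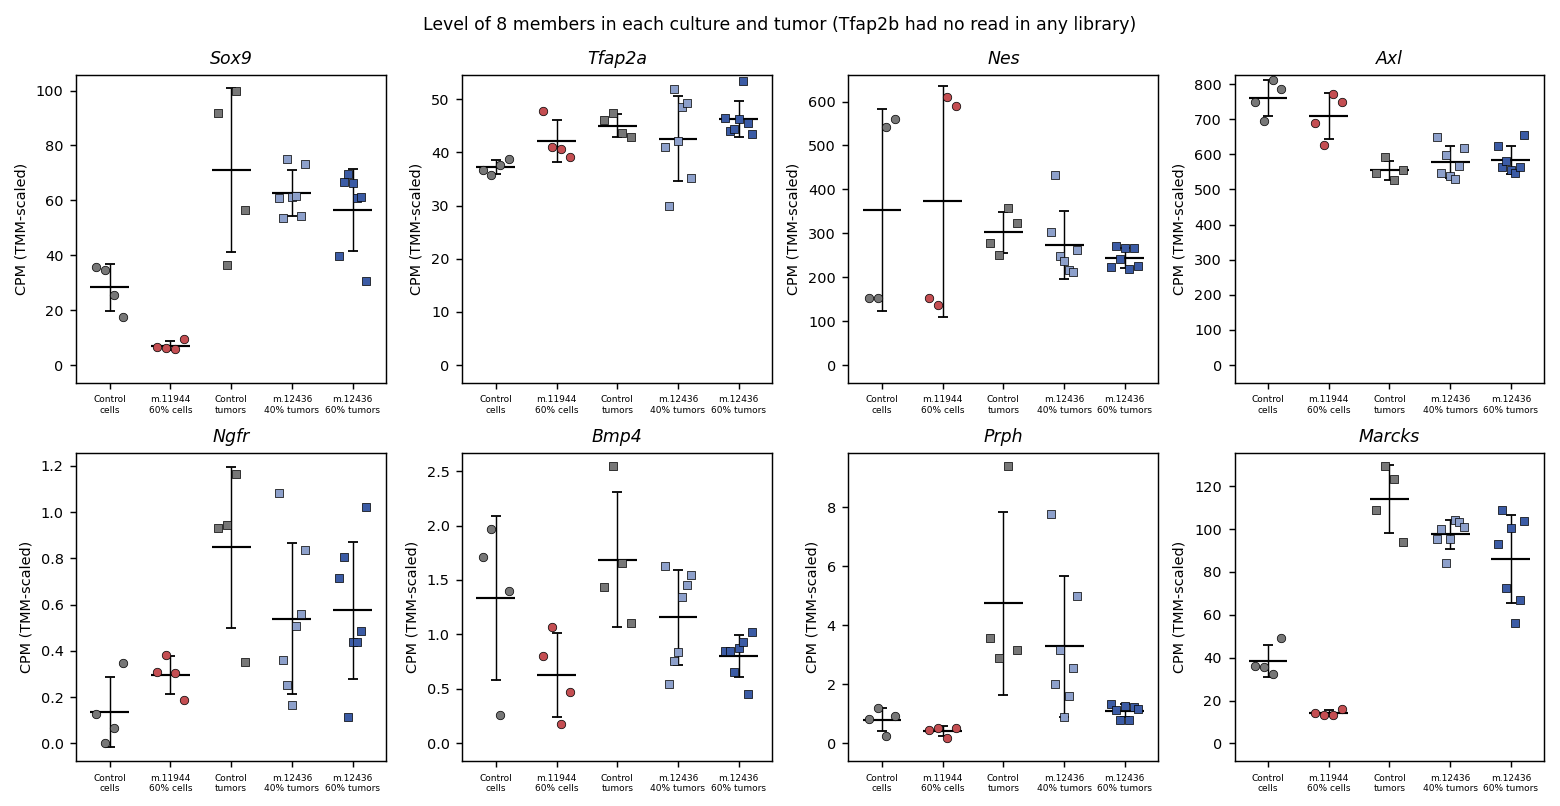
Level of each member in CPM (vertical axes, linear, 1 panel per gene) in 4 control cultures, 4 m.11944 60% cultures, 4 control tumors, 7 m.12436 40% tumors and 7 m.12436 60% tumors. Points are libraries, the wide bar is the mean and the error bar the SD; Sox9 and Marcks were lower in each edited culture than in any control culture, and the 7 m.12436 60% tumors lay at 0.783 to 1.35 CPM of Prph, below the 4 control tumors at 2.89 to 9.39 CPM.

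Per kilobase, Axl was the most abundant member in each group and Nes the next. In control cells Axl had a mean of 82.9 CPM per kilobase and Nes 54.9, and the ranges of these neighbours overlapped because Nes split into 2 levels. Marcks, Tfap2a and Sox9 followed at 9.12, 7.59 and 6.80 CPM per kilobase in control cells, and the ranges over the 4 cultures overlapped between Tfap2a and Sox9 and between Marcks and each of them. Prph, Bmp4 and Ngfr were the low members, at 0.369, 0.255 and 0.0394 CPM per kilobase. In control tumors the order after Axl and Nes was Marcks at 27.1, Sox9 at 17.0, Tfap2a at 9.17, Prph at 2.17, Bmp4 at 0.322 and Ngfr at 0.246 CPM per kilobase. Sox9 overlapped Tfap2a in those tumors, while Marcks overlapped Sox9 only through control tumor 3. Tfap2b had 0 reads in all 26 libraries. At 3 counts, this allows a level of up to 0.168 CPM in the shallowest library, m.12436 40% tumor 4, counting error only.

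The first comparison set the line with the m.11944 edit at 60% against control cells in culture, away from any host. Sox9 and Marcks were lower in every edited culture, Bmp4 and Prph were lower in each edited culture than in the control culture of the same number, and Axl and Nes stayed near their control levels. Of the 7 members tested, 1 passed an adjusted p of 0.1 in edgeR's test, Marcks, beside 0.0387% of all 12930 genes tested. Same-numbered cultures deviated together, and in a fit that took the number as a block 3 passed, Sox9, Marcks and Bmp4, all lower, beside 7.11% of all genes in either direction and 4.09% lower. Without the block and with any 1 of the 8 cultures left out, neither Marcks nor any other gene passed. The contrast had been used to choose members, and nothing is read from these counts.

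Sox9, which directs crest and glial fates, was at 35.8, 34.7, 25.4 and 17.7 CPM in control cultures 1 to 4. In the m.11944 60% cultures it was at 6.43, 6.39, 6.04 and 9.45 CPM. Each edited culture lay below each control culture. The mean fell from 28.4 ± 8.53 to 7.07 ± 1.59 CPM (SD, n = 4 each), a log2 fold change of −1.97 with a standard error of 0.26 and a 95% interval from −2.57 to −1.38. Within same-numbered pairs the edited culture held 0.179, 0.184, 0.238 and 0.534 of the control level, so that replicate 4 had the smallest difference, from both its low control and its high edited value. With the block the log2 fold change was −1.93 (SE 0.24).

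Marcks was at 36.2, 35.8, 32.4 and 49.0 CPM in control cultures 1 to 4 and at 14.2, 13.3, 13.1 and 16.1 CPM in the edited ones. The groups did not overlap, and the 4 pair ratios were close to one another, from 0.329 to 0.405. The log2 fold change was −1.41 (SE 0.16, 95% interval −1.77 to −1.04), and −1.40 (SE 0.09) with the block. Its homolog Marcksl1 had means of 144 ± 70.1 and 108 ± 36.1 CPM with overlapping ranges, and passed with the block at a log2 fold change of −0.32 (adjusted p = 0.0882, edgeR).

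**Figure D2:**
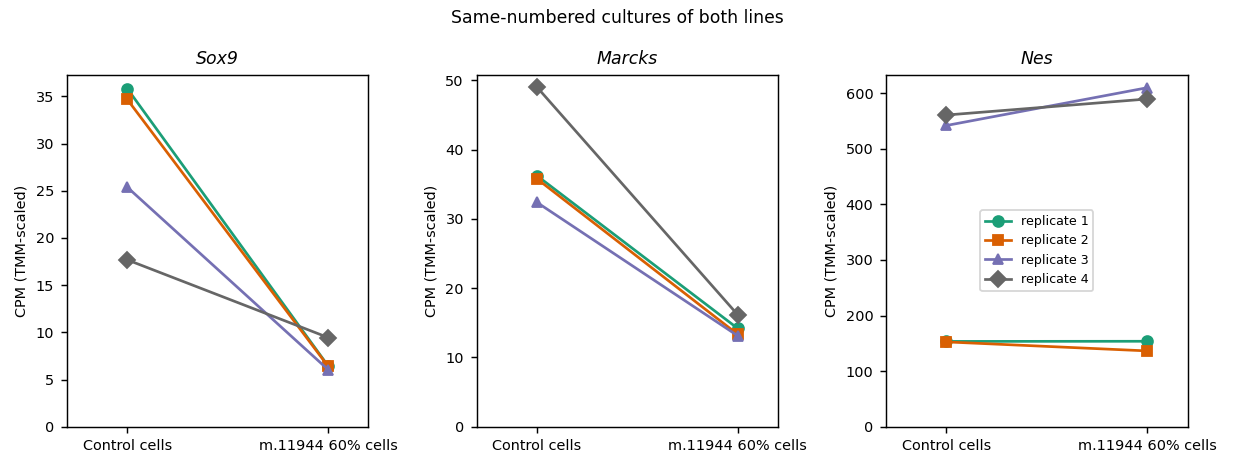
Sox9, Marcks and Nes in CPM (vertical axes, linear, from 0) in the 4 control and 4 m.11944 60% cultures, with a line joining cultures of the same replicate number. Sox9 and Marcks went down in each of the 4 pairs, while Nes lay at 136 to 154 or at 542 to 610 CPM by replicate number and differed little within a pair.

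Bmp4 was at 1.71, 1.97, 0.265 and 1.40 CPM in the control cultures and at 0.798, 1.06, 0.175 and 0.468 CPM in the edited ones. Prph was at 0.812, 1.21, 0.265 and 0.933 CPM in control and at 0.443, 0.511, 0.175 and 0.530 CPM in edited cultures. Both ligand and filament were lower in each of the 4 pairs, and both were lowest in replicate 3 of either line, where they rested on 8 reads in control and 4 reads in edited cells. The groups overlapped for both. The log2 fold changes were −1.06 (SE 0.66) for Bmp4 and −0.90 (SE 0.50) for Prph without the block. With it they were −1.08 (SE 0.25) and −0.90 (SE 0.28).

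Nes was at 153.5, 152.7, 542 and 561 CPM in control cultures 1 to 4 and at 154, 136, 610 and 590 CPM in the edited cultures. Replicates 3 and 4 of both lines had over 3 times the level of replicates 1 and 2, in edited and control cells alike. The log2 fold change was 0.10 (SE 0.66) without the block and 0.05 (SE 0.07, 95% interval −0.11 to 0.21) with it. The summed level of 7 melanocyte lineage genes differed between the same replicates in the other direction. It was 24.0, 26.9, 9.77 and 11.5 CPM in control cultures 1 to 4 and 15.1, 16.4, 9.01 and 10.7 CPM in edited ones. Mitf made up most of this sum, with means of 17.4 CPM in control and 12.4 CPM in edited cells. The other 6 genes stayed under 1 CPM in both lines, so the sum describes Mitf rather than the lineage. The part of this difference in the split of Nes was not tested.

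Axl, a TAM family receptor tyrosine kinase, was at 695 to 813 CPM in control and 625.5 to 772 CPM in edited cultures. Its log2 fold change was −0.07 (SE 0.11), and −0.08 (SE 0.06) with the block. Each edited culture was slightly below its pair, at 0.901 to 0.952 of it. Tfap2a was at 35.8 to 38.7 CPM in control cells, and all 4 edited cultures lay above that range, up to 47.8 CPM. Its log2 fold change was 0.21 (SE 0.10), and 0.20 (SE 0.08) with the block. The groups thus did not overlap for 3 of the 7 members tested, Sox9, Marcks and Tfap2a, beside 3.53% of all genes. Ngfr, the low-affinity neurotrophin receptor, had 0 to 9 reads per culture and was too low to be tested. The 10 tested genes within 2 Mb of Sox9 had log2 fold changes between −0.16 and 0.58, and the 4 near Marcks lay between −1.07 and 0.22. Of either set 0 passed the threshold, which says little, since only 5 of all 12930 genes did. At an unadjusted p under 0.05, 4.11% of all genes were called in this comparison.

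Lists of related genes were read beside the members in the same cultures. They hold some of the members and were chosen with earlier results of these data known. Nothing is read from their counts in this or the later comparisons. Without the block no gene of these lists other than Marcks passed. With it, their counts stand against 7.11% of all genes past the threshold in either direction and 4.09% lower. With the block, 3 of 10 neural crest transcription factors tested were lower and 0 higher. These were Msx1, Myc and the member Sox9, whose fall here was known when it was chosen. Msx1, a BMP-responsive homeobox factor, was at 1.297 ± 0.436 CPM in control and 0.445 ± 0.101 CPM in edited cells (adjusted p = 0.0458 with the block, edgeR), and Myc differed by −0.61 on the log2 scale (adjusted p = 0.0344). Without the block, the median log2 fold change of this list, Sox9 included, was −0.28, against 0.00 over all genes. It was −0.51 for the undifferentiated state, −0.01 for the neural crest-like state and −0.04 for the BMP pathway. For TAM genes, neurotrophin genes and intermediate filaments it was −0.07, 0.07 and 0.12. Of 16 tested genes of the undifferentiated melanoma state, 6 were lower and 0 higher. They included Egfr, Ccn1, Wnt5a, a non-canonical Wnt ligand, at 17.98 ± 3.78 and 7.01 ± 2.23 CPM (adjusted p = 0.000714), Loxl2, a lysyl oxidase, at 10.1 ± 3.46 and 4.35 ± 0.208 CPM (adjusted p = 0.00872), and Fosl1, an AP-1 factor, with a log2 fold change of −0.51 (adjusted p = 0.0449), all edgeR with the block.

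Of 8 tested genes of the neural crest-like state, 2 were lower with the block, the GDNF family receptor Gfra2, at 2.88 ± 1.25 and 0.427 ± 0.310 CPM (adjusted p = 0.0075), and the ErbB ligand Nrg1, at 0.775 ± 0.113 and 0.213 ± 0.109 CPM (adjusted p = 0.0288), and 1 was higher, the adhesion molecule L1cam. In the BMP pathway, 4 of 15 were lower and 0 higher. They were Bmp4 itself, the receptor Acvr1, with a log2 fold change of −0.28 (adjusted p = 0.0836), Smad1, a transducer of BMP signals, with −0.34 (adjusted p = 0.0686), and the inhibitory Smad7, with −0.58 (adjusted p = 0.0458), in edgeR with the block. The BMP target Id1 ranged from 10.6 to 157 CPM among control cultures alone. Among TAM receptors and ligands, 1 of 5 was lower, the Axl ligand Gas6, at 1.11 ± 0.164 CPM in control and 0.385 ± 0.0603 CPM in edited cells (adjusted p = 0.0288 with the block, edgeR). The neurofilament gene Nefl was higher, at 0.669 ± 0.174 and 1.49 ± 0.745 CPM (adjusted p = 0.062), the 1 intermediate filament gene of 7 that passed.

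The second comparison took the m.12436 edit at 60% into tumors. Prph and Bmp4 were lower in all 7 edited tumors than in any control tumor, Marcks, Sox9, Nes and Ngfr had lower means with overlapping ranges, and Axl and Tfap2a differed little. Of 8 members tested, 2 passed, both lower, beside 2.31% of 16213 genes in either direction and 1.34% lower, and again the contrast had been used in choosing them. In fragments of tumor, fewer cells of a type and less RNA per cell cannot be told apart.

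Prph was at 3.56, 2.89, 9.39 and 3.17 CPM in control tumors 1 to 4. In the 60% tumors it lay between 0.783 and 1.35 CPM with a median of 1.16 CPM. The highest 60% tumor was thus below the lowest control tumor. The log2 fold change was −2.10 (SE 0.44, 95% interval −3.04 to −1.17), with means of 4.75 ± 3.10 (SD, n = 4) and 1.11 ± 0.226 CPM (SD, n = 7). Control tumor 3, with the highest summed level of melanocyte genes, held the highest value. Without it the log2 fold change was −1.51 and Prph no longer passed the threshold, while the 2 groups still did not overlap.

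Bmp4 was at 1.44, 2.55, 1.66 and 1.10 CPM in control tumors, and in the 60% tumors between 0.454 and 1.02 CPM with a median of 0.850 CPM. The groups stood apart by a narrow margin, between 1.02 and 1.10 CPM, at 14 to 31 reads per 60% tumor. The log2 fold change was −1.08 (SE 0.29, 95% interval −1.68 to −0.48). Bmp4 passed in 3 of 11 fits that left out 1 tumor, those without control tumor 4, 60% tumor 5 or 60% tumor 7. Apart from Bmp4, none of the 19 genes of the BMP pathway tested passed in either direction in edgeR. Those with the lowest unadjusted p were Smad1, with a log2 fold change of −0.24 (SE 0.08, unadjusted p = 0.00652, adjusted p = 0.144), Id1 with −0.53 (SE 0.20, unadjusted p = 0.0157, adjusted p = 0.194) and Bmpr2 with 0.27 (SE 0.11, unadjusted p = 0.0272, adjusted p = 0.245), all in edgeR.

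**Figure D3:**
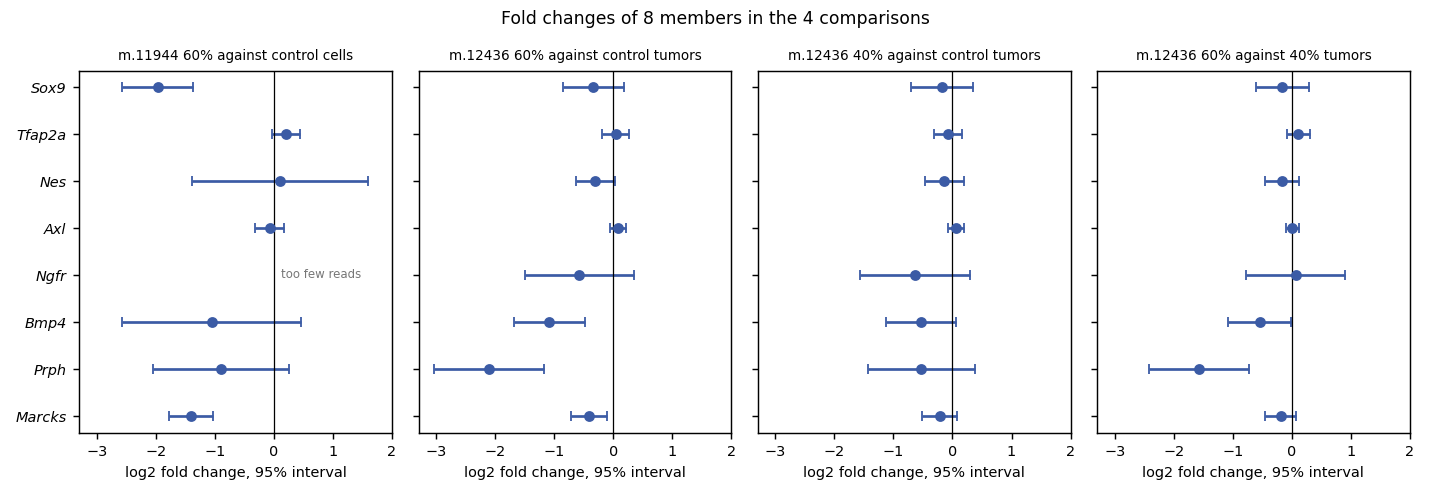
Log2 fold change of 8 members (points; rows are genes) with its 95% interval (bars) from edgeR in the 4 comparisons, horizontal axes linear with 0 marked; Ngfr had too few reads in culture. Sox9 and Marcks lay farthest below 0 in the cultures, at −1.97 and −1.41, and Prph and Bmp4 in the 60% tumors, at −2.10 and −1.08, while the intervals of all 8 members crossed 0 for 40% against control.

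Marcks was at 109.0, 129, 123 and 93.9 CPM in control tumors and at 56.2 to 109 CPM, median 92.8 CPM, in 60% tumors, with a log2 fold change of −0.41 (SE 0.14). The ranges overlapped, with 60% tumors 3, 5 and 6 at 72.5 CPM or less and the other 4 at 92.8 CPM or more. Sox9 was at 91.8, 36.5, 99.999 and 56.4 CPM in control and at 30.7 to 69.8 CPM, median 61.1 CPM, in 60% tumors, with a log2 fold change of −0.34 (SE 0.25), and of −0.11 without control tumor 3. The Sox9 level in control tumors thus spread over a wider range than that of any edited group.

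Nes was at 250.5 to 356.5 CPM in control tumors and 219 to 271 CPM in 60% tumors, with a log2 fold change of −0.30 (SE 0.16), or −0.20 without control tumor 3. The split of Nes seen between cultures had no counterpart in tumors, where the levels lay between those 2 culture levels in all 18 fragments. Ngfr, with 3 to 38 reads per tumor, had a log2 fold change of −0.57 (SE 0.45), or −0.37 without control tumor 3. Axl was at 527 to 591 CPM in control and 548 to 656 CPM in 60% tumors, a log2 fold change of 0.07 (SE 0.06), and Tfap2a had 0.04 (SE 0.11). Groups did not overlap for 2 of 8 members, both lower, beside 4.18% of all genes in either direction and 2.78% lower.

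The related lists in this comparison stand beside 2.31% of all genes past the threshold in either direction and 1.34% lower. Of 18 undifferentiated state genes, 2 were lower and 0 higher. Loxl2 fell from 64.6 ± 13.1 CPM in control tumors to 27.2 ± 5.49 CPM in 60% tumors (log2 fold change −1.25, adjusted p = 0.00134, edgeR), and Wnt5a from 29.6 ± 7.14 to 15.1 ± 3.64 CPM (log2 fold change −0.98, adjusted p = 0.00624, edgeR). Without control tumor 3 both still passed, at −1.09 and −0.83. Both had also been lower in the cultures with the block, where the edit was at another position. The lists had been chosen with earlier results of these data known, so these values are a description and no independent test. Gfra2 was the 1 gene of 10 of the neural crest-like list to pass, at 19.6 ± 5.79 and 11.7 ± 3.41 CPM (adjusted p = 0.0935, edgeR), and its adjusted p was 0.480 without control tumor 3. Pmel passed at a log2 fold change of −2.21 (adjusted p = 0.0456, edgeR). Without control tumor 3, which held 8.19 CPM of it, the log2 fold change of Pmel was −0.56 and the adjusted p 0.559 in edgeR. Of 10 crest transcription factors, 5 TAM genes and 8 neurotrophin genes, 0 passed in edgeR.

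**Figure D4:**
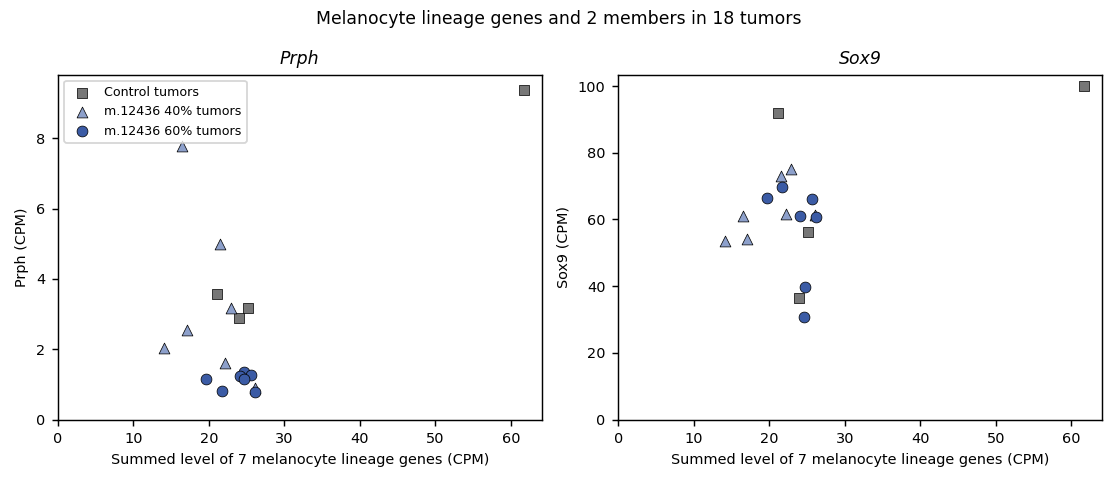
Prph and Sox9 in CPM (vertical axes) against the summed level of 7 melanocyte lineage genes in CPM (horizontal axes) in 18 tumors, with linear axes from 0 and symbols for the 3 tumor groups. Control tumor 3 stands alone at 61.7 CPM on the horizontal axis and has the highest Prph, 9.39 CPM, and the highest Sox9, 99.999 CPM, while the other 17 tumors lie between 14.1 and 26.2 CPM.

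Markers of host cells moved unevenly with the groups. Summed leukocyte markers were at 219 to 407 CPM in 60% tumors, against 156 to 267 CPM in control and 164 to 262 CPM in 40% tumors, and all 3 markers were present in each group. Fibroblast markers were at 2616 to 2950 CPM in 60% and 2356 to 3636 CPM in control tumors. Schwann cell markers were at 33.8 to 55.9 CPM in 60% and 37.9 to 53.6 CPM in control tumors, and the same sum was 37.3 to 55.8 CPM in the control cultures, which hold no host cells. Skeletal muscle markers varied from 1.01 to 195 CPM across all 18 tumors. None of the genes of these 4 marker lists passed in the comparisons between tumors by edgeR without the block. With it, 1 leukocyte marker was higher in 60% than in control tumors. T and NK cell markers were at 5.87 to 31.6 CPM in 60%, 5.64 to 15.1 CPM in control and 4.11 to 13.0 CPM in 40% tumors. The part of host cells in the members' levels was not tested.

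The tumors at 40% heteroplasmy were set against the same control tumors. No member passed against control tumors, nor did any of the 16213 genes by edgeR, for a share of 0%, while 825 of them, or 5.09%, had an unadjusted p under 0.05 and DESeq2 called 5. Prph in the 40% tumors ranged from 0.895 to 7.79 CPM with a median of 2.54 CPM, overlapping both other groups. Its log2 fold change was −0.53 (SE 0.43, 95% interval −1.43 to 0.37), and without control tumor 3 it was 0.06.

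The 60% and 40% comparisons share their control tumors, and their log2 fold changes are set side by side for that reason alone. For Bmp4 they were −1.08 at 60% and −0.53 (SE 0.28) at 40%. With 1 tumor left out, those of Bmp4 ranged from −1.23 to −0.81 at 60% and from −0.68 to −0.26 at 40%. For Marcks they were −0.41 and −0.22 (SE 0.14), and for Nes −0.30 and −0.14 (SE 0.16). Without control tumor 3 those of Nes were −0.20 and −0.04. Sox9 had −0.34 and −0.18 (SE 0.25), and −0.11 and 0.05 without control tumor 3. Ngfr had −0.57 and −0.64 (SE 0.45), and −0.37 and −0.43 without that tumor. Axl had 0.07 and 0.06 (SE 0.06), and Tfap2a 0.04 and −0.07 (SE 0.11). The members' adjusted p in the 40% comparison were 0.924 or higher in edgeR.

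The 2 heteroplasmies were also compared with each other. Prph was lower at 60% than at 40%, with a log2 fold change of −1.57 (SE 0.40, adjusted p = 0.0796, edgeR), the 1 member of 8 to pass, beside 1.81% of all genes in either direction and 0.993% lower. The 60% tumors had entered the choice of Prph, so that this test is not independent of it. In 6 of 7 of the 40% tumors Prph was above the highest 60% tumor, at 1.35 CPM, and the 40% tumor 4 lay at 0.895 CPM within the 60% range. The call was narrow, since the adjusted p was 0.182 by limma-voom. It was also lost in 9 of 14 fits that left out 1 tumor, where the adjusted p from edgeR reached 0.141. These were the fits without 60% tumor 1, 2, 3, 4, 5 or 7 or without 40% tumor 1, 6 or 7.

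Bmp4 was at 0.541 to 1.63 CPM in 40% tumors, with a log2 fold change of −0.55 for 60% against 40% (SE 0.26, adjusted p = 0.345, edgeR). Marcks was at 84.2 to 104 CPM in 40% tumors and differed by −0.19 (SE 0.12, adjusted p = 0.526). Sox9, at 53.4 to 75.0 CPM, differed by −0.16 (SE 0.21, adjusted p = 0.789), and Nes, at 211 to 433 CPM, by −0.16 (SE 0.14, adjusted p = 0.630). Axl differed by 0.01 with a 95% interval from −0.10 to 0.12, and Tfap2a by 0.11 with an interval from −0.08 to 0.31. Among the listed genes outside the members, Loxl2 (log2 fold change −1.24, adjusted p = 0.000845), Wnt5a (−0.89, adjusted p = 0.00611), Smad1 (−0.36, adjusted p = 0.0160) and Snai2, a crest repressor of E-cadherin (−0.30, adjusted p = 0.0892), were lower at 60% than at 40% in edgeR.

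Control tumors were set against control cells to see where each member is most abundant. Of 8 members tested, 5 were higher in tumors and 1 lower, beside 65.2% of 15047 genes past the threshold, 35.3% higher and 29.9% lower, so that such calls were common. Growth in the animal and host cells cannot be told apart here. The control cultures' levels of Sox9 and Marcks and the control tumors' level of Prph had entered the choice of these genes, so their values are again a description. Marcks had 38.4 ± 7.32 CPM in control cells and 114 ± 15.8 CPM in control tumors (log2 fold change 1.60, SE 0.16), and Sox9 28.4 ± 8.53 and 71.2 ± 29.9 CPM (1.36, SE 0.34).

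Prph had 0.806 ± 0.398 and 4.75 ± 3.10 CPM (log2 fold change 2.60, SE 0.53), and a log2 fold change of 2.00 without control tumor 3. Ngfr rose from 0.136 ± 0.152 to 0.848 ± 0.348 CPM (2.65, SE 0.68, adjusted p = 0.00786), from counts so low in culture that the size of the change depends on the prior count. Tfap2a rose by 0.31 on the log2 scale (SE 0.09, adjusted p = 0.0195). Axl was the member that fell, from 761 ± 51.4 to 555 ± 27.0 CPM (log2 fold change −0.42, SE 0.10, adjusted p = 0.00608). Nes and Bmp4 had −0.19 (SE 0.43) and 0.39 (SE 0.52), with adjusted p of 0.729 and 0.539 in edgeR. Fibroblast markers summed to 2356 to 3636 CPM in these tumors and to 14.6 to 22.8 CPM in the cultures, and leukocyte markers to 156 to 267 CPM against at most 0.199 CPM, and their part in these differences was not tested.

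Of 11 crest transcription factors, 3 were higher in control tumors than in control cells, the members Sox9 and Tfap2a among them, and 6 lower. Of 4 tested genes of the melanocyte list 3 were higher and 0 lower. The neural crest-like list had 6 higher and 2 lower of 10, and the undifferentiated list 10 higher and 5 lower of 17. These counts stand beside 35.3% of all genes higher and 29.9% lower. Pax3, among the 6 lower crest factors, no longer passed without control tumor 3 (adjusted p = 0.104, edgeR). Snai2 fell by 2.79 on the log2 scale, from 112 ± 36.4 to 15.9 ± 1.32 CPM (adjusted p = 1.3e-05, edgeR), while the neurofilament gene Nefl rose from 0.669 ± 0.174 to 6.09 ± 2.96 CPM (adjusted p = 0.000101, edgeR). Ednrb, the endothelin receptor of melanoblasts, had 0 reads in the control cultures and a mean of 10.3 ± 5.06 CPM in control tumors.

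Over the 18 tumors, log2 levels of the members were related unevenly, as a description over libraries that share depth and host content. The 3 groups were pooled with their means kept, so differences between groups enter r. In control, 40% and 60% tumors, the means were 4.75, 3.285 and 1.11 CPM for Prph and 1.69, 1.16 and 0.804 CPM for Bmp4. Bmp4, Marcks, Prph and Ngfr formed the most alike block, with Pearson r from 0.52 to 0.63. Tfap2a and Nes had an r of −0.71, and Sox9 and Axl −0.53. The gene most like Sox9 among all genes tested was Ednrb (r = 0.90), followed by Vegfa (0.81) and Aplp1 (0.79). Genes close to Prph included Sema3b (0.93) and Wdr83os (0.92), and Marcks was most like Chchd10 (0.90), Maf (0.89) and Clip4 (0.87). Nes was most like Ftl1-ps1 and Cct5, both at 0.91, and Ftl1 (0.90). Bmp4 was most like Dcaf15 (0.85), Tfap2a most like Bphl (0.89), Ngfr most like Zfp787 (0.89) and Axl most like Il17rc (0.76).

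Some members share exon bases with noncoding genes on the other strand, and whether the counts used strand is not given in the sources used here. BC006965, opposite Sox9 over 542 bases, had at most 7 reads in a library, and Gm15222, opposite Bmp4 over 1178 bases, at most 4. Gm47061, opposite Tfap2a over 265 bases, had at most 29. These counts were below the 138 or more reads of Sox9 and the 663 or more of Tfap2a, whereas Bmp4 itself had as few as 4 reads in a culture. Among the other overlaps were Gm26688, opposite Tfap2a over 380 bases, and Gm15217, opposite Bmp4 over 452, whose reads are not given here.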

How the data were processed

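GeneWiz extracted and sequenced the RNA. Reads were mapped by the authors with STAR to GRCm39 and assigned to genes with featureCounts, and raw counts were deposited, which were checked to be whole numbers. Of 47 columns, 26 were matched to samples by name and 21 were not used, so that m.11944 tumors, m.12436 60% cells and the other control tumors were not analysed here. Symbols, positions and exon lengths came from GENCODE vM39, which held 56017 of 56748 genes, and promoters from the GRCm39 genome.

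Counts were tested in R 4.3.3 with edgeR 4.0.16 (TMM scaling, filterByExpr, robust quasi-likelihood test, two-sided, Benjamini-Hochberg adjusted p under 0.1, the study's threshold), after a check on simulated data. Cultures, tumors and control tumors with control cells were fitted separately, with scaling factors of their own. Printed CPM come from 1 scaling over all 26 libraries, and log2 CPM used a prior count of 2. The deposited columns are counts alone, so total counts of 16475735 to 36173502 set the precision.

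The members and gene lists were chosen with earlier results of these data known. All members were named, with, from each list, up to 3 genes of smallest p and those past the threshold, and the 3 genes most like each member, apart from a few genes not reported here. Same-numbered cultures deviated together across genes (correlations of 0.717 to 0.832), so the block is printed beside their results; the labels number the cultures. Tumors did not pair. Alternatives were limma-voom 3.58.1, DESeq2 1.42.0 and its size factors, 2 other filters, a threshold of 0.05, the block, only the 2 groups compared, a prior count of 0.25 and each library left out. The block for control tumors against control cells was added after seeing the data.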

Additional observations from a re-analysis of the deposited data

Results flagged for a closer look

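In groups of 4 to 10 libraries, a highest or lowest value was marked where its gap to the next, as a share of the group's range, passed Dixon's 95% critical value, which chance alone does in about 1 of 20 groups. Of 40 groups checked, 4 values were marked. Sox9 in m.11944 60% culture 4 was 9.45 CPM, against 6.04 to 6.43 CPM in the other 3 cultures. Prph in control tumor 3 was 9.39 CPM, against 2.89 to 3.56 CPM. Tfap2a in m.12436 60% tumor 5 was 53.4 CPM, against 43.4 to 46.5 CPM. Nes in m.12436 40% tumor 2 was 433 CPM, against 211 to 304 CPM.

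For Prph, the log2 fold change of m.12436 tumors against control at 60% less that at 40% was −1.57 (adjusted p = 0.0796, edgeR), which is the comparison of 60% with 40% tumors. The 60% tumors had entered the choice of Prph, so the value is no independent test, and the call was lost by limma-voom, with the replicate block, with no filter and in 9 of 14 fits that left out 1 tumor.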

How the results depend on the processing

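Depth limits Ngfr, Bmp4 and Prph in culture, with 0 to 47 reads per library, and Tfap2b throughout. In cultures (5 genes and 1 member past the threshold) DESeq2 gave 84 and 2, the replicate block 919 and 3, no filter 2 members, at least 10 counts in every sample 0 and 0, and leaving out 1 culture 0 to 0 of either, whichever of the 8 was left out. For 60% against control tumors (374 and 2) DESeq2 gave 1056 genes, an adjusted p under 0.05 150 and 1, the block 178 and 1, only the 2 groups 943 genes, and leaving out 1 tumor 66 to 724 genes and 0 to 2 members, lowest without control tumor 3. For 40% against control (0) DESeq2 gave 5 genes and leaving out 1 tumor 0 to 4. For 60% against 40% (293 and 1) DESeq2 gave 744 genes, no filter 178 and 0, an adjusted p under 0.05 113 and 0, limma-voom and the block 0 members, and leaving out 1 tumor 108 to 452 genes and 0 to 1 members. For control tumors against control cells, the 9806 genes became 8921 to 10530 with 1 library left out, and the 6 members stayed 6 in number. No filter gave 12563 genes and 5 members there, and at least 10 counts in every sample 6931 and 4.

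Some directions turned. Nes in control tumors against control cells was 0.083 by limma-voom, 0.075 with the block and −0.45 to 0.11 with 1 library left out. Tfap2a at 60% against control was −0.0021 with the block. With 1 library left out, Nes in cultures ranged from −0.24 to 0.43, Sox9 at 40% against control from −0.39 to 0.0486, Prph from −0.89 to 0.0574, and at 60% against 40% Axl from −0.0187 to 0.0358 and Ngfr from −0.15 to 0.31. The cause was not tested. The log2 CPM difference of Ngfr between control tumors and control cells moved to 3.34 with a prior count of 0.25. The tumors' numbers did not pair them (mean correlations of −0.156, −0.00587 and −0.0262 in the 3 tumor comparisons). The values of the listed genes without control tumor 3 were an alternative chosen after seeing the data.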
